A study of Homo sapiens with 5 samples.

Results

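The genes described here are long noncoding RNAs (lncRNAs) that are abundant in many human cells or that carry small RNAs within their transcripts. The genes listed were NEAT1, MALAT1, GAS5, SNHG1, SNHG5, SNHG8, SNHG12, ZFAS1, MIR17HG and MIR155HG. Each was taken as the row of the deposited table whose Ensembl gene ID maps to that symbol, a rule that uses no measured value. Of these 10 genes, 9 matched a row among the 51055 rows of the table, and the level of SNHG8 was not analysed here. Together the 9 genes held 0.147% of all counts in each ZIP library, 0.158% and 0.161% in the SCR libraries, and 0.171% in the UNT library.

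The libraries came from HL60, an established human promyelocytic leukaemia line. ZIP cells (n = 2 libraries) carried a pGreenPur lentivector whose miRZip hairpin is antisense to miR-378a-3p. SCR cells (n = 2) carried the control lentivector, which the labels call both scramble and empty, and UNT cells (n = 1) were not transduced. Both vectors carry green fluorescent protein. They were delivered by spin transduction (multiplicity of infection 20, polybrene at 8 µg/mL), and puromycin at 2 µg/mL selected the cells between day 3 and day 8. UNT cells therefore differ from both transduced groups in vector, polybrene and selection at once, and these cannot be told apart. Which clones or integration sites the transduced pools held was not analysed here.

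Library totals ran from 24406580 to 30925067 counts. The mean chi-square per gene was 1.88 within the ZIP pair and 2.65 within the SCR pair, so replicates were close, against 99.7 between ZIP 1 and SCR 1. Nothing in the labels says that replicates were separate cultures, so the p-values rest on a spread between libraries that may be technical. The 8 promyelocyte markers, MPO and ELANE among them, were detected in every library. Their summed level was 24282 and 23626 CPM (counts scaled to library size) in ZIP, 13033 and 13044 CPM in SCR, and 26847 CPM in UNT. Most of this sum was MPO, with 17049 and 16583 CPM in ZIP, 9966 and 9991 CPM in SCR, and 19021 CPM in UNT. MYB and CD33 did not follow it, whereas the others were each lowest in SCR. MYB had 410 and 415 CPM in ZIP, 457 and 455 CPM in SCR, and 394 CPM in UNT. CD33 had 82.5 and 83.6 CPM in ZIP, 79.8 and 84.1 CPM in SCR, and 101 CPM in UNT. The 3 monocyte markers CD14, CSF1R and VCAN summed to 10.8 and 11.2 CPM in ZIP, 116 and 119 CPM in SCR, and 3.46 CPM in UNT. The 13 mitochondrially encoded mRNAs held 5.53% and 5.57% of counts in ZIP, 3.64% and 3.76% in SCR, and 7.25% in UNT. These shares moved with the groups, and their part in the results below was not tested. CPM values use library sizes scaled by TMM, a method that centres most genes on no change, and in bulk RNA fewer cells of a type and less RNA per cell cannot be told apart.

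NEAT1 RNA is the scaffold of paraspeckles, nuclear bodies that retain proteins and RNAs, and MALAT1 RNA lies in nuclear speckles beside pre-mRNA splicing factors. The GAS5, SNHG and ZFAS1 genes carry small nucleolar RNAs (snoRNAs), guides of rRNA modification, in their introns, and several of the spliced RNAs that remain are short-lived because ribosomes engage them and nonsense-mediated decay removes them. MIR17HG is the primary transcript of the miR-17-92 cluster, a growth-promoting set that MYC and E2F factors switch on, and MIR155HG (also called BIC) is the primary transcript of miR-155, induced in activated immune cells by NF-kB and AP-1.

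The sequences that tie these genes to the results are the mature microRNAs of the host genes, shown with the microRNA that the vector targets. They are from RefSeq (GRCh38.p14), 5′ to 3′, and capitals mark the seed, bases 2 to 8, through which a microRNA pairs with its targets.
hsa-miR-17-5p: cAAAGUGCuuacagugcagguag
hsa-miR-20a-5p: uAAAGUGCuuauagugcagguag
hsa-miR-18a-5p: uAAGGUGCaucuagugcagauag
hsa-miR-19a-3p: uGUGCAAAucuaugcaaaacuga
hsa-miR-19b-3p: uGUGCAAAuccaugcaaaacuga
hsa-miR-92a-3p: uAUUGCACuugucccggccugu
hsa-miR-155-5p: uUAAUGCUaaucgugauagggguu
hsa-miR-378a-3p: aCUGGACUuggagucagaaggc
Within the cluster, miR-17-5p and miR-20a-5p share a seed, and miR-19a-3p and miR-19b-3p share another. None of the other 7 microRNAs shown shares the seed of miR-378a-3p. The values below are counts of the host transcripts, not of these mature microRNAs.

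A 7-base site opposite the seed of miR-378a-3p, AGTCCAG, was searched in the longest GENCODE transcript of each gene. MALAT1 held 1 such site, shown here as the 30 bases around position 2769 of the transcript with the site in capitals.
MALAT1: agataggaaaagAGTCCAGgagccagtgcg
The longest transcripts of the other 9 listed genes held 0 sites, while 1 of 8 NEAT1 transcripts and 1 of 10 ZFAS1 transcripts held one. Among 14886 noncoding genes, 9.82% had a site in the longest transcript. MALAT1 had 0.115 sites per kilobase, beside 0.0913 over all those genes.

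**Figure D1:**
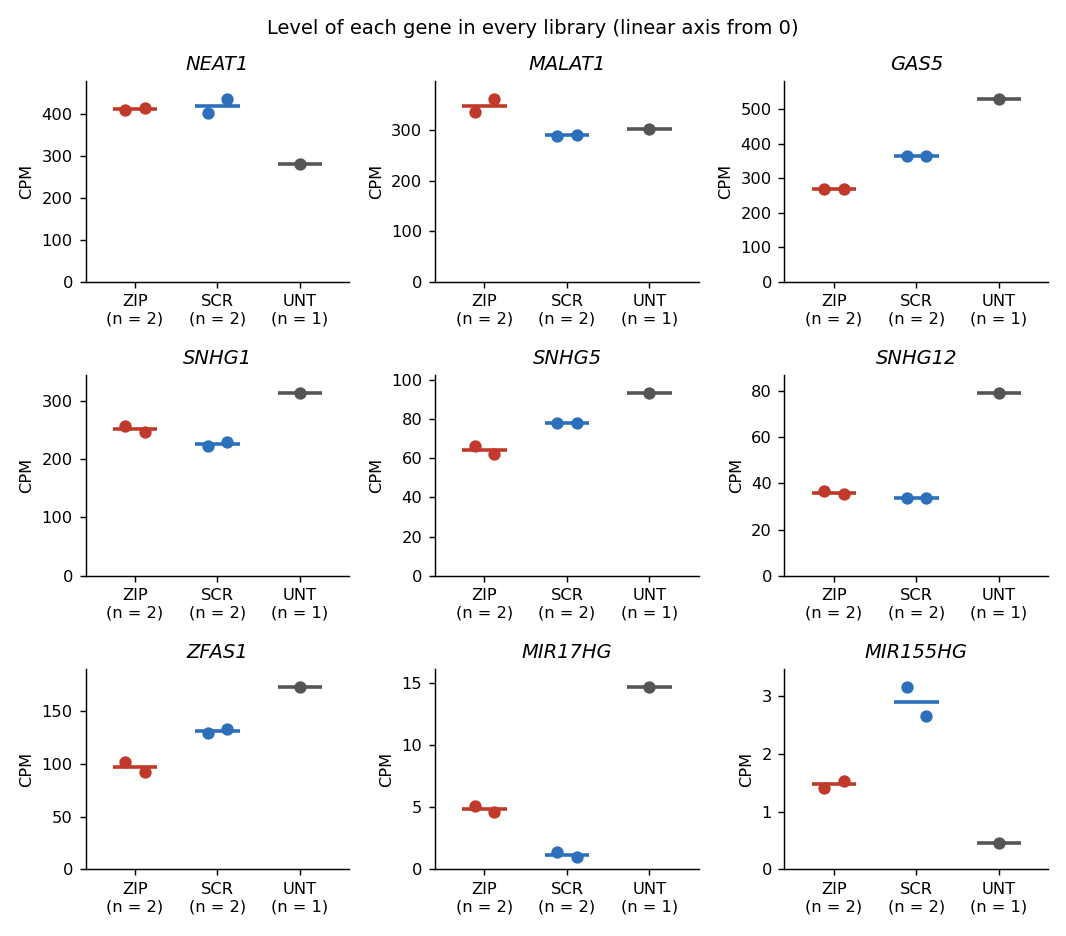
Level of each of the 9 genes (CPM on TMM-scaled library size, linear axis from 0) in the ZIP, SCR and UNT libraries; points are libraries and lines are group means. MIR17HG and MIR155HG are ordered in opposite ways: MIR17HG is lowest in SCR and highest in UNT, MIR155HG the reverse.

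By mean CPM over the 5 libraries, NEAT1, GAS5, MALAT1 and SNHG1 ranked 2, 3, 4 and 5 among 8621 long noncoding genes of the table. This order pools groups that differ: MALAT1 averaged more than GAS5 in ZIP (348 and 269 CPM), and NEAT1 had the lowest level of these 4 genes in UNT (281 CPM). ZFAS1 ranked 10, SNHG5 15, SNHG12 22, MIR17HG 139 and MIR155HG 330. Per kilobase of annotated exon, the order of the levels changed, because NEAT1 and MALAT1 are long. In ZIP cells GAS5 led with 74.0 CPM per kilobase, and in SCR cells and UNT cells it led with 100.2 and 146 CPM per kilobase. SNHG1 and ZFAS1 followed in all 3 groups, then MALAT1 and SNHG5. NEAT1 stood at 18.1 CPM per kilobase in ZIP, 18.4 in SCR and 12.3 in UNT, with SNHG12 below it in ZIP and SCR but above it in UNT. MIR17HG and MIR155HG were last, with 1.40 and 0.917 CPM per kilobase in ZIP, 0.342 and 1.81 in SCR, and 4.22 and 0.287 in UNT. The ranges of neighbouring genes did not overlap in ZIP or SCR, but ZFAS1 and MALAT1 nearly touched in ZIP (41.0 to 45.2 beside 38.0 to 40.8 CPM per kilobase), as did SNHG1 and ZFAS1 in SCR (59.4 to 61.0 beside 57.3 to 59.2). Exon lengths are from GENCODE release 29, which may differ from the annotation that the authors counted on.

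Of the 9 genes, 7 passed the test in ZIP against SCR, 3 higher and 4 lower (edgeR quasi-likelihood test, Benjamini-Hochberg adjusted p under 0.05), where 65.4% of the 14643 genes tested passed, 32.2% higher and 33.2% lower. Changes of at least 1.5-fold were seen in 2 of them, 1 higher and 1 lower, beside 25.6% of all genes (8.94% higher and 16.6% lower). In SCR against UNT 8 of 9 passed, 2 higher and 6 lower, beside 64.9% of 15832 genes (32.7% higher and 32.2% lower), and 3 reached 1.5-fold, 1 higher and 2 lower, beside 33.6% (20.2% higher and 13.3% lower). In ZIP against UNT 9 of 9 passed, 3 higher and 6 lower, beside 58.2% (28.5% higher and 29.7% lower), and 5 reached 1.5-fold, 1 higher and 4 lower, beside 25.2% (13.8% higher and 11.4% lower). The median log2 fold change of the 9 genes was -0.03 in ZIP against SCR, -0.40 in SCR against UNT and -0.54 in ZIP against UNT, beside 0.00, 0.02 and 0.00 over all genes. These shares of all genes also apply to the counts of gene lists below. The 3 comparisons share libraries, so their values are given side by side and not set against each other. UNT has 1 library, whose spread is assumed to equal that of the others.

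**Figure D2:**
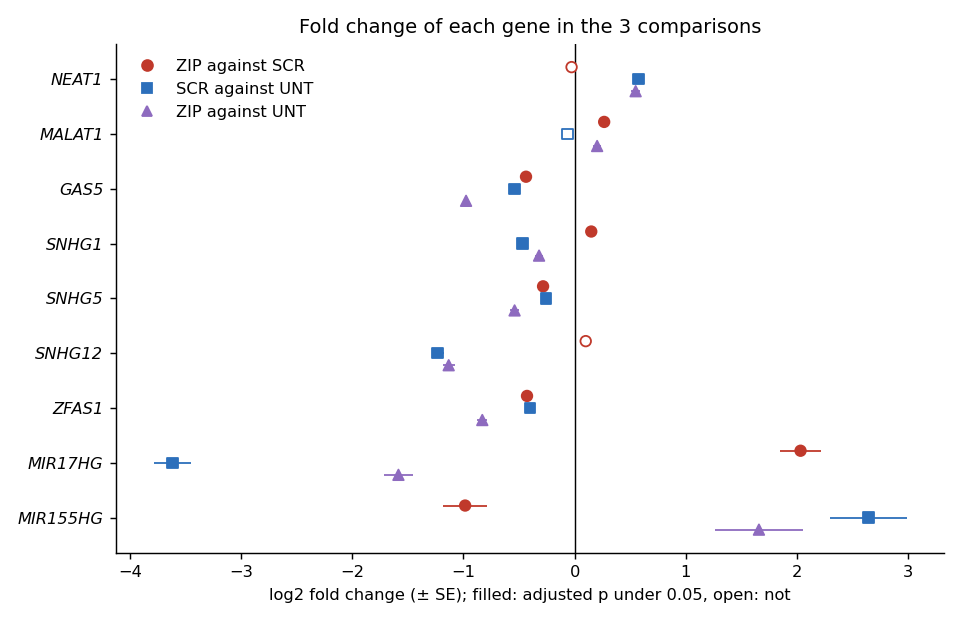
Log2 fold change of each gene (x axis, bars ± SE) in ZIP against SCR (circles), SCR against UNT (squares) and ZIP against UNT (triangles); filled symbols have an adjusted p under 0.05. The largest are those of MIR17HG (2.03, -3.62 and -1.59) and MIR155HG (-0.99, 2.65 and 1.66), and NEAT1, MALAT1 and SNHG12 each have 1 open symbol.

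NEAT1 (ENSG00000245532, chromosome 11, plus strand, 65422774 to 65445540 in GRCh38, the build of all gene spans here) is the longest of the 9 genes by exon length. It had 409 and 414 CPM in the ZIP libraries, 403 and 436 CPM in the SCR libraries, and 281 CPM in the UNT library. Both ZIP libraries fell inside the range of the SCR pair, and all 4 transduced libraries stood above UNT. ZIP against SCR gave a log2 fold change of -0.03 ± 0.03 (SE), which did not pass (adjusted p = 0.45). NEAT1 was higher in SCR than in UNT by 0.58 ± 0.04 (SE) on the log2 scale (adjusted p = 5e-12) and higher in ZIP than in UNT by 0.55 ± 0.04 (adjusted p = 2.2e-11), each just under 1.5-fold. The ZIP against SCR value depended on single SCR libraries: it was -0.08 without SCR 1 (adjusted p = 0.035) and 0.03 without SCR 2. With library totals in place of TMM it was -0.09 (adjusted p = 0.016), and its adjusted p ran from 0.016 to 0.75 over the alternatives. The gene's counts fall on 1 exon block of 22767 bases that holds both its short and long forms, so these counts cannot separate the forms, of which the long one builds paraspeckles.

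MALAT1 (ENSG00000251562, chromosome 11, plus strand, 65497688 to 65506516) had 335 and 360 CPM in ZIP, 289 and 290 CPM in SCR, and 302 CPM in UNT. Both ZIP libraries stood above every other library, and the SCR pair lay a little below UNT. MALAT1 was higher in ZIP than in SCR by 0.27 ± 0.03 (SE) on the log2 scale, a 1.20-fold difference (adjusted p = 1.7e-07), and higher in ZIP than in UNT by 0.20 ± 0.04 (adjusted p = 6.5e-05). In SCR against UNT the value was -0.06 ± 0.04 and did not pass (adjusted p = 0.15), and with library totals its sign turned (0.05). FRMD8, the protein-coding gene nearest to NEAT1, had a log2 fold change of 0.08 in ZIP against SCR (not called).

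Of 17 paraspeckle protein genes measured, 12 were higher and 1 lower in ZIP than in SCR, and with library totals 9 were higher and 2 lower. Among them SMARCA4, a chromatin remodelling ATPase found in paraspeckles, had 367 and 365 CPM in ZIP, 272 and 280 CPM in SCR, and 214 CPM in UNT. CPSF6, a cleavage factor subunit, had 257 and 262 CPM in ZIP, 203 and 205 CPM in SCR, and 232 CPM in UNT. In SCR against UNT 6 of the 17 were higher and 8 lower, but with library totals 8 were higher and 1 lower, so no direction can be given. The list's median log2 fold change was 0.13 in ZIP against SCR, beside 0.00 over all genes.

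The snoRNA host genes split in ZIP against SCR: GAS5, SNHG5 and ZFAS1 were lower, SNHG1 was higher and SNHG12 did not pass. All 5 matched hosts were lower in SCR than in UNT and lower in ZIP than in UNT. GAS5 (growth arrest specific 5, ENSG00000234741, chromosome 1, minus strand, 173863900 to 173868882) is an RNA known to build up when growing cells stop translating. It had 268 and 269 CPM in ZIP, 364 and 363 CPM in SCR, and 529 CPM in UNT. The 3 groups were far apart beside the small gap within each pair. GAS5 differed by a log2 fold change of -0.44 ± 0.03 (SE) in ZIP against SCR (adjusted p = 7e-12), -0.54 ± 0.03 in SCR against UNT (adjusted p = 2.3e-13) and -0.98 ± 0.03 in ZIP against UNT (adjusted p = 1e-17).

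ZBTB37, a zinc finger gene on the opposite strand, overlaps 801 bases of the GAS5 span but none of its annotated exons. It had 6.95 and 7.11 CPM in ZIP, 4.37 and 4.35 CPM in SCR, and 1.67 CPM in UNT. Its order was therefore the reverse of that of GAS5, with a log2 fold change of 0.69 ± 0.12 (SE) in ZIP against SCR (adjusted p = 4.4e-05). The sources used here do not say whether counting used strand, so reads of overlapping genes on opposite strands may have been shared.

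ZFAS1 (ENSG00000177410, chromosome 20, plus strand, 49278178 to 49295738) starts head to head with ZNFX1 and hosts the SNORD12 snoRNAs. It had 101 and 92.0 CPM in ZIP, 129 and 133 CPM in SCR, and 173 CPM in UNT. No ZIP library reached an SCR library, and no SCR library reached UNT. Its log2 fold changes were -0.43 ± 0.04 (SE) in ZIP against SCR (adjusted p = 3.1e-09), -0.40 ± 0.04 in SCR against UNT (adjusted p = 2.2e-08) and -0.83 ± 0.04 in ZIP against UNT (adjusted p = 1.6e-13). ZNFX1, which shares 249 exon bases with ZFAS1, had 43.4 and 45.2 CPM in ZIP, 40.9 and 41.6 CPM in SCR, and 45.7 CPM in UNT. Its log2 fold change of 0.10 ± 0.05 in ZIP against SCR did not pass (adjusted p = 0.064).

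SNHG5 (ENSG00000203875, chromosome 6, minus strand, 85660950 to 85678748) had 66.1 and 62.0 CPM in ZIP, 78.2 and 78.3 CPM in SCR, and 93.4 CPM in UNT. It was lowest in ZIP and highest in UNT, as GAS5 and ZFAS1 were, with smaller differences. Those differences on the log2 scale were -0.28 ± 0.04 (SE) in ZIP against SCR (adjusted p = 1.4e-06), -0.26 ± 0.04 in SCR against UNT (adjusted p = 1.7e-05) and -0.54 ± 0.04 in ZIP against UNT (adjusted p = 3.7e-10). SYNCRIP, the nearest protein-coding gene, had 0.12 in ZIP against SCR.

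SNHG1 (ENSG00000255717, chromosome 11, minus strand, 62851988 to 62855914), a host of several snoRNAs, had 256 and 246 CPM in ZIP, 223 and 229 CPM in SCR, and 313 CPM in UNT. The ZIP libraries lay between the SCR pair and UNT. ZIP against SCR gave a log2 fold change of 0.15 ± 0.03 (SE) (adjusted p = 0.00016), a 1.11-fold difference, SCR against UNT gave -0.47 ± 0.04 (adjusted p = 4.4e-11) and ZIP against UNT gave -0.32 ± 0.04 (adjusted p = 4.4e-08). SLC3A2, an amino acid transporter subunit whose start lies 188 bases away on the opposite strand, had a log2 fold change of -0.11 ± 0.03 in ZIP against SCR (adjusted p = 0.0045).

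SNHG12 (ENSG00000197989, chromosome 1, minus strand, 28578538 to 28583132) had 36.9 and 35.2 CPM in ZIP, 33.6 and 33.8 CPM in SCR, and 79.2 CPM in UNT. All 4 transduced libraries lay close together and far below UNT. SNHG12 differed by -1.23 ± 0.05 (SE) on the log2 scale in SCR against UNT (adjusted p = 2.7e-15), so UNT held 2.35-fold more, and -1.13 ± 0.05 in ZIP against UNT (adjusted p = 1.7e-14). In ZIP against SCR it was 0.10 ± 0.05 and did not pass (adjusted p = 0.095), though without ZIP 2 it was 0.14 (adjusted p = 0.046, and 0.046 to 0.51 over the alternatives). TRNAU1AP, which shares 8 exon bases with SNHG12 and takes part in selenocysteine incorporation, had 15.2 and 13.3 CPM in ZIP, 23.8 and 25.5 CPM in SCR, and 21.7 CPM in UNT.

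The starts of 3 of these hosts share a sequence feature. In SNHG12, SNHG5 and ZFAS1 the letters TATATAA lie 30, 32 and 31 bases before the RefSeq start, where a TATA box sits in the promoters that have one. The motif was chosen after the sequences were seen, and only this exact spelling was searched. Related letters also occur before the start of other listed genes, as TATAAATA in a MALAT1 window and TATAAAAG in that of MIR155HG. The shares of windows given below are therefore those of this spelling and not of TATA boxes. The 70-base windows of GRCh38.p14, written 5′ to 3′ on the gene's strand with the motif in capitals, are on chr1:28581854-28581923 (minus strand, SNHG12), chr6:85678714-85678783 (minus strand, SNHG5) and chr20:49278592-49278661 (plus strand, ZFAS1).
SNHG12: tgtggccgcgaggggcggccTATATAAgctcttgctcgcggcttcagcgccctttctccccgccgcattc
SNHG5: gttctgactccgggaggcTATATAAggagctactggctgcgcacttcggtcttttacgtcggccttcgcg
ZFAS1: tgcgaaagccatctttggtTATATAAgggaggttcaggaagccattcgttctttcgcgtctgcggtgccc
The same 70-base stretch held these letters on the gene's strand in 250 of 35116 RefSeq promoter windows, or 0.712%, and on either strand in 308, or 0.877%. A match is a description of the letters and not of a working site. The RefSeq starts of these hosts lie inside the gene spans given above, which are from GENCODE.

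The other snoRNA host lncRNAs, a list of 19 of which 16 were measured, showed 9 higher and 4 lower in ZIP than in SCR, with a median log2 fold change of 0.20. SNHG32 had 123 and 117 CPM in ZIP, 235 and 236 CPM in SCR, and 238 CPM in UNT, a log2 fold change of -0.97 ± 0.03 (SE) in ZIP against SCR (adjusted p = 2.8e-16). SNHG29 had 306 and 297 CPM in ZIP, 433 and 440 CPM in SCR, and 578 CPM in UNT. These hosts were lower in ZIP, whereas SNHG17 and DANCR were higher. SNHG17 had 75.3 and 80.6 CPM in ZIP, 47.3 and 45.6 CPM in SCR, and 101 CPM in UNT. DANCR, which is also known for keeping progenitor cells undifferentiated, had 83.8 and 83.8 CPM in ZIP, 50.5 and 56.5 CPM in SCR, and 129 CPM in UNT. Against UNT, SCR cells had 0 of the 16 higher and 13 lower, with a median of -0.73 beside 0.02 over all genes. With library totals 1 was higher and 12 lower.

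The proteins that bind and assemble snoRNAs were read as a separate list. Of 16 snoRNP protein genes measured, 14 were higher and 2 lower in ZIP than in SCR (median log2 fold change 0.46). In SCR against UNT 1 was higher and 15 lower (median -0.48). With library totals 13 were higher and 2 lower in ZIP against SCR, and 1 was higher and 13 lower in SCR against UNT. NOP56, a core protein of box C/D snoRNPs, had 459 and 448 CPM in ZIP, 302 and 304 CPM in SCR, and 422 CPM in UNT. NOLC1, a nucleolar chaperone of snoRNPs, had 586 and 593 CPM in ZIP, 394 and 403 CPM in SCR, and 468 CPM in UNT. SHQ1, an assembly factor of box H/ACA particles, had 69.3 and 68.7 CPM in ZIP, 39.3 and 39.2 CPM in SCR, and 85.6 CPM in UNT. RUVBL2, an ATPase of the assembly complex, had 273 and 275 CPM in ZIP, 198 and 194 CPM in SCR, and 281 CPM in UNT. Against UNT, ZIP cells had 6 of the 16 higher and 7 lower.

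Host RNAs such as GAS5 are known to begin with a terminal oligopyrimidine (TOP) tract, as do the mRNAs of translation factors and ribosomal proteins. The RefSeq start used here did not show it for GAS5. Its longest run of C or T within 50 bases was 8 bases, beginning 31 bases after that start (35.9% of windows had one as long). SNHG12 had a run of 12 bases at its RefSeq start (9.30%). Starts can differ between annotations. Of 17 TOP translation genes, 4 were higher and 9 lower in ZIP than in SCR, and 1 was higher and 16 lower in SCR than in UNT. With library totals 3 were higher and 11 lower in ZIP against SCR, and 2 were higher and 12 lower in SCR against UNT. In ZIP against UNT 0 were higher and 16 lower, with a median log2 fold change of -0.58. RACK1, a ribosome-bound scaffold, had 2022 and 2002 CPM in ZIP, 2453 and 2468 CPM in SCR, and 3049 CPM in UNT, the same order as GAS5. TPT1 had 1919 and 1897 CPM in ZIP, 2408 and 2452 CPM in SCR, and 2652 CPM in UNT. EEF1A1, the elongation factor that brings aminoacyl-tRNA to the ribosome, had 771 and 750 CPM in ZIP, 1111 and 1102 CPM in SCR, and 942 CPM in UNT. PABPC1, the cytoplasmic poly(A)-binding protein, was higher in ZIP than in SCR by 0.21 ± 0.01 (SE) on the log2 scale.

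Of 16 factors of nonsense-mediated decay, 7 were higher and 4 lower in ZIP than in SCR, and with library totals 5 were higher and 6 lower. In all, 11 of the 16 passed, a share near the 65.4% of all genes that passed. SMG1, the kinase that phosphorylates UPF1, had 363 and 369 CPM in ZIP, 303 and 308 CPM in SCR, and 230 CPM in UNT. EIF4A3, of the exon junction complex, was higher in ZIP than in SCR by 0.33 ± 0.03 (SE) on the log2 scale, and ETF1, a translation release factor, was lower with a value of -0.25 ± 0.03. Against UNT, SCR cells had 6 higher and 6 lower, and with library totals 8 were higher and 3 lower.

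**Figure D3:**
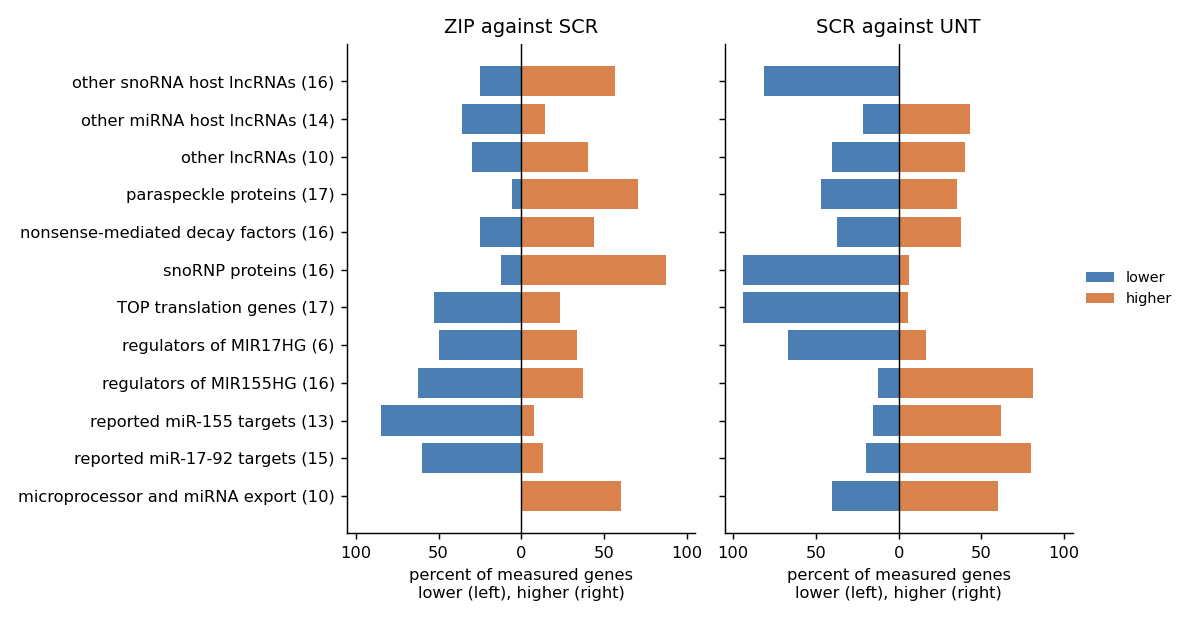
Percent of the measured genes of each list (number in brackets) that passed the test, lower (bars to the left) or higher (bars to the right), in ZIP against SCR and in SCR against UNT. The snoRNP protein list has 14 of 16 higher in ZIP against SCR and 15 of 16 lower in SCR against UNT, and the TOP translation list has 16 of 17 lower in SCR against UNT.

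The table also holds counts at some of the snoRNA loci. The GENCODE release used places 25 small RNA loci, counted by ID, within the listed genes, 17 snoRNAs and 8 microRNAs. Of these loci, 4 matched a row of the table by ID. All 4 are snoRNAs, so the microRNA loci of MIR17HG and MIR155HG were not analysed here. SNORD22 in SNHG1 and SNORA16A in SNHG12 are each counted under separate IDs. Within GAS5 this annotation places no snoRNA, although GAS5 is described above as a host. The 17 may therefore not be the full set, and the snoRNAs of GAS5 were not analysed here. SNORD12C, inside ZFAS1, had 44 and 34 counts in ZIP, 12 and 10 counts in SCR, and 7 counts in UNT. SNORD12B had 49 and 56 counts in ZIP, 21 and 26 counts in SCR, and 10 counts in UNT. SNORD12 had 57 and 43 counts in ZIP, 26 and 16 counts in SCR, and 8 counts in UNT. At each of the 3 loci both ZIP libraries exceeded both SCR libraries, although their host ZFAS1 was lower in ZIP.

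ZIP against SCR gave log2 fold changes of 1.71 ± 0.32 (SE) for SNORD12C (adjusted p = 7.7e-05), 1.06 ± 0.26 for SNORD12B (adjusted p = 0.0015) and 1.15 ± 0.27 for SNORD12 (adjusted p = 0.00085). In ZIP against UNT the values were 2.27 ± 0.47 for SNORD12C (adjusted p = 0.00024), 2.19 ± 0.42 for SNORD12B (adjusted p = 9.4e-05) and 2.43 ± 0.44 for SNORD12 (adjusted p = 4.9e-05). SNORD12B and SNORD12 also passed in SCR against UNT (1.13 ± 0.48 and 1.29 ± 0.52, adjusted p = 0.045 and 0.033), but both missed with DESeq2 (adjusted p = 0.19 and 0.16). SNORD12 also missed without SCR 1 (0.89, adjusted p = 0.22) and without ZIP 1 (1.29, adjusted p = 0.053), and SNORD12B without SCR 2 (0.99, adjusted p = 0.13). Over the alternatives the adjusted p ran from 0.011 to 0.22 for SNORD12 and from 0.027 to 0.19 for SNORD12B. SNORD12C did not pass there (0.55 ± 0.60, adjusted p = 0.43).

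The 3 SNORD12 loci together had 48.3 and 59.8 counts per 1000 ZFAS1 counts in ZIP, 18.1 and 15.2 in SCR, and 6.04 in UNT. The 95% Poisson interval of the snoRNA counts gave 40.8 to 56.6 in ZIP 1 and 50.05 to 70.8 in ZIP 2, 13.8 to 23.3 in SCR 1 and 11.4 to 20.0 in SCR 2, and 3.91 to 8.92 in UNT. The intervals of the 3 groups did not overlap, but they cover counting error only and the ratio carries no test. SNORD12 shares 90 exon bases with ZFAS1 in the annotation, so its counts may include host reads. Over all 829 snoRNA loci of the table the libraries held 2393 and 1854 counts in ZIP, 1227 and 1349 in SCR, and 1779 in UNT. The labels name a small RNA library kit, but protein-coding genes held 97.1% and 97.0% of counts in ZIP, 96.9% and 96.6% in SCR, and 96.8% in UNT. Which RNA a count at these loci stands for, a mature snoRNA or a precursor, was not tested.

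SNORD99, inside SNHG12, had 11 and 10 counts in ZIP, 6 and 6 counts in SCR, and 29 counts in UNT. It did not pass the filter on low counts in ZIP against SCR. It was lower in SCR than in UNT by a log2 fold change of -2.34 ± 0.50 (SE, adjusted p = 0.00027) and lower in ZIP than in UNT by -1.65 ± 0.45 (adjusted p = 0.0032, but 0.13 with DESeq2, and 0.0006 to 0.13 over the alternatives). Per 1000 SNHG12 counts it had 9.74 and 11.7 in ZIP, 7.03 and 6.90 in SCR, and 15.3 in UNT. The 95% intervals of single libraries overlapped, and the difference in this ratio between groups was not tested.

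**Figure D4:**
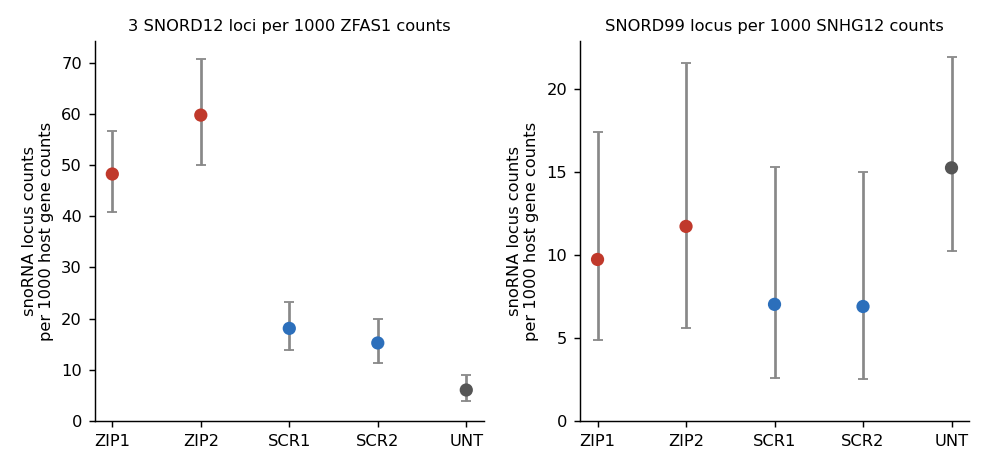
Counts at snoRNA loci per 1000 counts of their host gene in each library, for the 3 SNORD12 loci in ZFAS1 (left) and for SNORD99 in SNHG12 (right); bars are 95% Poisson intervals of the snoRNA counts. The ZIP libraries are at 48.3 and 59.8 for SNORD12, above SCR at 18.1 and 15.2 and UNT at 6.04, while the SNORD99 intervals overlap.

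MIR17HG (ENSG00000215417, chromosome 13, plus strand, 91347820 to 91354579) had the largest changes of the 9 genes in ZIP against SCR and in SCR against UNT. It had 5.09 and 4.67 CPM in ZIP, 1.38 and 1.01 CPM in SCR, and 14.7 CPM in UNT. These rest on 156 and 113 counts in ZIP, 35 and 26 counts in SCR, and 353 counts in UNT. The 3 groups did not overlap, and ZIP lay between SCR and UNT. MIR17HG differed by a log2 fold change of 2.03 ± 0.19 (SE) in ZIP against SCR, 4.10-fold higher (adjusted p = 7.7e-09). It was -3.62 ± 0.17 in SCR against UNT (adjusted p = 9.9e-15), so UNT held 12.3-fold more than SCR, and -1.59 ± 0.13 in ZIP against UNT (adjusted p = 3.5e-10), so UNT held 3.00-fold more than ZIP.

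Of 6 measured regulators of MIR17HG, 2 were higher and 3 lower in ZIP than in SCR, and 1 was higher and 4 lower in SCR than in UNT. MYC, an activator of the cluster, had 1223 and 1214 CPM in ZIP, 926 and 933 CPM in SCR, and 2033 CPM in UNT. It had the same order as MIR17HG, with smaller differences: 0.39 ± 0.02 (SE) on the log2 scale in ZIP against SCR and -1.13 ± 0.02 in SCR against UNT. TFDP1, a partner of E2F factors, had 463 and 467 CPM in ZIP, 323 and 321 CPM in SCR, and 442 CPM in UNT. E2F2 went the other way, with 18.0 and 18.0 CPM in ZIP, 37.8 and 38.2 CPM in SCR, and 23.0 CPM in UNT.

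Of 15 genes reported elsewhere as targets of miR-17-92, 2 were higher and 9 lower in ZIP than in SCR, and 12 were higher and 3 lower in SCR than in UNT. CDKN1A, a cyclin-dependent kinase inhibitor, had 0.882 and 0.703 CPM in ZIP, 34.6 and 36.4 CPM in SCR, and 0.667 CPM in UNT. SOCS3, an inhibitor of cytokine signalling, had 1.24 and 0.951 CPM in ZIP, 8.55 and 8.40 CPM in SCR, and 0.626 CPM in UNT. STAT3 had 62.4 and 60.6 CPM in ZIP, 92.7 and 89.6 CPM in SCR, and 44.1 CPM in UNT. These 3 transcripts were highest in SCR, and any tie to the level of MIR17HG was not tested. The mature microRNAs of the cluster were not analysed here.

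MIR155HG (ENSG00000234883, chromosome 21, plus strand, 25561909 to 25575168) had 1.40 and 1.53 CPM in ZIP, 3.15 and 2.64 CPM in SCR, and 0.459 CPM in UNT. The counts were low, at 43 and 37 in ZIP, 80 and 68 in SCR, and 11 in UNT, where the 95% Poisson interval ran from 0.229 to 0.821 CPM. Every SCR library was above every ZIP library, and UNT was below both. Its log2 fold changes were -0.99 ± 0.20 (SE) in ZIP against SCR (adjusted p = 0.00021), 2.65 ± 0.34 in SCR against UNT (adjusted p = 4.7e-07) and 1.66 ± 0.39 in ZIP against UNT (adjusted p = 0.00095). The summed level of the 3 monocyte markers followed the same order as MIR155HG, lowest in UNT and highest in SCR. Among them, VCAN did not separate ZIP (0.163 and 0.0827 CPM) from UNT (0.0834 CPM). The part of these markers in the values of MIR155HG was not tested.

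The RefSeq promoter window of MIR155HG carries the letters of an AP-1 site, TGANTCA, 60 bases before the RefSeq start. Both that start and the site lie inside the gene span given above, which is from GENCODE. The bases around the site, on the plus strand at chr21:25562058-25562118 in GRCh38.p14, are given with the motif in capitals.
MIR155HG: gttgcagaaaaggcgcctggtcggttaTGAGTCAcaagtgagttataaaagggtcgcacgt
These letters occur on either strand in 7.71% of 35116 RefSeq promoter windows of 300 bases. Such windows were at hand for 9 listed genes, SNHG8 among them but not NEAT1, and of these only MIR155HG held the letters. The E-box CACGTG, in 7.26% of windows, was in none of these 9, and the E2F letters TTTGGCGC or TTTCGCGC, in 1.15% of windows, were in SNHG1.

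Of 16 regulators of MIR155HG, 6 were higher and 10 lower in ZIP than in SCR (median log2 fold change -0.42), and 13 were higher and 2 lower in SCR than in UNT (median 0.93). The 4 with the smallest p in ZIP against SCR were AP-1 genes. JUN had 99.3 and 94.9 CPM in ZIP, 250.2 and 250.1 CPM in SCR, and 7.47 CPM in UNT. FOS had 49.3 and 48.9 CPM in ZIP, 135 and 131 CPM in SCR, and 5.59 CPM in UNT. FOSL2 had 59.5 and 60.8 CPM in ZIP, 213 and 216 CPM in SCR, and 29.03 CPM in UNT. These AP-1 genes had the order of MIR155HG, highest in SCR and lowest in UNT. JUNB had 67.6 and 69.4 CPM in ZIP, 152 and 147 CPM in SCR, and 106 CPM in UNT, so it was lowest in ZIP.

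Of 13 measured genes reported elsewhere as targets of miR-155, 1 was higher and 11 lower in ZIP than in SCR, and 8 were higher and 2 lower in SCR than in UNT (10 and 1 with library totals). CEBPB, a myeloid transcription factor, had 33.4 and 33.0 CPM in ZIP, 115 and 113 CPM in SCR, and 56.4 CPM in UNT. INPP5D, the SHIP1 phosphatase, had 247 and 248 CPM in ZIP, 343 and 348 CPM in SCR, and 139 CPM in UNT. CSF1R, the receptor of macrophage colony-stimulating factor and also one of the monocyte markers, had 7.18 and 6.90 CPM in ZIP, 41.0 and 43.9 CPM in SCR, and 1.29 CPM in UNT.

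The genes that cut and load microRNAs were also read. Of 10 such genes, 6 were higher and 0 lower in ZIP than in SCR (6 and 1 with library totals), and 6 were higher and 4 lower in SCR than in UNT. AGO2, the Argonaute protein that slices targets, had 56.9 and 62.6 CPM in ZIP, 33.8 and 34.6 CPM in SCR, and 17.6 CPM in UNT. AGO1 had 76.3 and 81.0 CPM in ZIP, 49.6 and 50.6 CPM in SCR, and 40.8 CPM in UNT. DICER1, which cuts precursors to mature microRNAs, had 124 and 125 CPM in ZIP, 85.4 and 82.3 CPM in SCR, and 95.6 CPM in UNT. TARBP2, a partner of DICER1, had 56.6 and 56.5 CPM in ZIP, 38.1 and 39.1 CPM in SCR, and 64.9 CPM in UNT.

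Of 14 other measured microRNA host lncRNAs, 2 were higher and 5 lower in ZIP than in SCR, and 6 were higher and 3 lower in SCR than in UNT. MIR210HG had 0.163 and 0.207 CPM in ZIP, 3.07 and 3.42 CPM in SCR, and 0.0417 CPM in UNT. MIR3142HG, which also gives rise to miR-146a, had 0.196 and 0.248 CPM in ZIP, 1.85 and 2.49 CPM in SCR, and 0.667 CPM in UNT. Like MIR155HG, both were highest in SCR. MIR9-3HG had 0 counts in both ZIP libraries, 1.42 and 1.01 CPM in SCR, and 0 counts in UNT. DLEU2, host of miR-15a and miR-16-1, had 22.8 and 22.6 CPM in ZIP, 31.2 and 32.5 CPM in SCR, and 22.6 CPM in UNT.

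Of 10 other measured lncRNAs, 4 were higher and 3 lower in ZIP than in SCR, but 2 and 4 with library totals. HCP5, a lncRNA of the MHC region, had 0.131 and 0.165 CPM in ZIP, 1.66 and 1.94 CPM in SCR, and 0.0834 CPM in UNT. PVT1, the neighbour of MYC, had 24.5 and 24.2 CPM in ZIP, 20.1 and 20.1 CPM in SCR, and 23.8 CPM in UNT. CYTOR had 13.8 and 13.3 CPM in ZIP, 10.7 and 11.9 CPM in SCR, and 16.1 CPM in UNT. HOTAIRM1, a lncRNA of the HOXA cluster expressed in myeloid cells, had 1.70 and 1.12 CPM in ZIP, 2.17 and 2.45 CPM in SCR, and 2.34 CPM in UNT.

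The genes with the nearest patterns were found among 8656 genes with a symbol and a mean of at least 10 CPM, by the distance between their pairs of log2 differences, ZIP minus SCR and SCR minus UNT, over the 5 libraries. Nearest to NEAT1 were XPC (distance 0.0119), a DNA damage sensor, PLK3 (0.0155), a stress-responsive kinase, and FAM53C (0.0189). Nearest to MALAT1 were LAMP2 (0.00297), a lysosomal membrane protein, WDR4 (0.00972), a tRNA methylation subunit, and HSPD1 (0.0115), a mitochondrial chaperonin. For MIR17HG the nearest were CD320 (0.251), the transcobalamin receptor, KIT (0.620), the stem cell factor receptor, and SRPX (0.895), so no gene was as close as for NEAT1 and MALAT1. CD320 had 14.3 and 14.4 CPM in ZIP, 3.47 and 2.68 CPM in SCR, and 38.0 CPM in UNT. KIT had 21.7 and 22.6 CPM in ZIP, 5.44 and 4.28 CPM in SCR, and 38.0 CPM in UNT. For MIR155HG they were JAML (0.0833), an adhesion protein of leukocytes, MEF2D (0.117), a transcription factor, and SLC66A1 (0.162), a lysosomal transporter.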

How the data were processed

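Per the labels, total RNA of HL60 cells (mirVana extraction) went into TruSeq Small RNA libraries read on an Illumina HiSeq. The counts themselves fell mostly on protein-coding genes (96.6% to 97.1% in each library). The authors deposited raw counts per gene for 51055 Ensembl IDs in 5 libraries, with no normalization, as the whole-number values show. Per the submitters' processing notes, Bowtie2 and featureCounts were used, whereas the design text names CASAVA, TopHat 2, Cufflinks, HTSeq, Cuffdiff and MultiRankSeq, which includes edgeR. The sources used here do not say which of these made the counts, nor the genome build, the annotation or the use of strand. Library totals were 30925067 and 24406580 (ZIP), 24539092 and 24978022 (SCR) and 25064771 (UNT), with 0 columns of other samples and 0 entries that name no gene.

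Symbols, spans and exons came from GENCODE release 29 (GRCh38), with 44305 IDs matched. Sequences came from RefSeq (GRCh38.p14) and GENCODE transcripts. Tests used edgeR 4.0.16 with limma 3.58.1 under R 4.3.3: filterByExpr (minimum count 10, minimum total 15), TMM factors (0.990 and 0.991 in ZIP, 1.03 and 1.03 in SCR, 0.956 in UNT), the quasi-likelihood test and Benjamini-Hochberg adjustment over all genes at 0.05. ZIP against SCR used 4 libraries, and comparisons with UNT used all 5, each with 2 residual degrees of freedom. Alternatives were DESeq2 1.42.0, its size factors, library totals, no filter, all libraries in one fit, a replicate block and each replicate left out. The tests were first run on simulated counts. These gave all genes the same spread and changed only well-counted genes, so they cannot check low-count genes or the single UNT library. A pseudocount of 0.1 CPM entered the pattern distances only.

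The genes listed, their related lists, motifs and tests were chosen with earlier results of these data known. Named were all the listed genes, their nearest or overlapping protein-coding genes, up to 4 genes of each list with the smallest p in ZIP against SCR, and the 3 nearest patterns for NEAT1, MALAT1, MIR17HG and MIR155HG. Some genes that this rule names are not reported here. Intervals cover counting error only.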

Additional observations from a re-analysis of the deposited data

How the results depend on the processing

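Every count of passing genes, over the listed genes and over all genes, stayed within 1.5 times its value under each alternative run (104 values). For the 9 genes, 229 values kept their direction and their side of the threshold and 3 newly passed: NEAT1 in ZIP against SCR with library totals and without SCR 1, and SNHG12 in ZIP against SCR without ZIP 2. The sign changed in 2 values: MALAT1 in SCR against UNT with library totals (0.0470), and NEAT1 in ZIP against SCR, where leaving out each replicate in turn gave -0.0777 to 0.0285. Library totals moved the median of all genes by 0.11 on the log2 scale in SCR against UNT, by -0.06 in ZIP against SCR and by 0.05 in ZIP against UNT, so values of that size are to be read relative to it. Among the other genes 12 values changed sign, each for a gene close to 0. With library totals these were FRMD8 (0.0497), SNHG32 (0.0959), HOTAIRM1 (0.0929) and E2F3 (0.0766) in SCR against UNT, and ZNFX1 (0.00411) and RUVBL2 (0.0162) in ZIP against UNT. With replicates left out in turn, SCR against UNT gave -0.114 to 0.00222 for FRMD8, -0.00451 to 0.0147 for SYNCRIP, -0.0994 to 0.0698 for HOTAIRM1 and -0.0765 to 0.0191 for E2F3, and ZIP against UNT gave -0.00220 to 0.0229 for DLEU2 and -0.0260 to 0.0722 for FRMD8. Of the remaining values of other genes, 49 no longer passed, 9 newly passed and 1506 kept direction and call; the cause was not tested. In ZIP against SCR, single libraries left out gave 1.83 to 2.28 for MIR17HG and -1.11 to -0.85 for MIR155HG. The correlation of replicate deviations between SCR and ZIP was 0.0319. It cannot show whether the replicate numbers pair the libraries, because replicates differed little within each group. With the replicate number as a block, 7 of the 9 genes again passed in ZIP against SCR, with 9709 genes over the table. No paired analysis was possible against UNT because it has 1 library. Depth limits MIR155HG and the snoRNA loci, with 6 to 80 counts in each library, and MIR17HG in SCR, with 35 and 26 counts. It also limits other named genes at low levels, among them MIR210HG, MIR3142HG, MIR9-3HG and HCP5, with 0 to 0.248 CPM in the ZIP libraries.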
